A study of Saccharomyces cerevisiae with 6 samples.

Results

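TRP2 and MET6 are neighbouring genes on the right arm of chromosome V of budding yeast, and their contacts were read here from Hi-C maps in 10 kb bins. The members were the 2 bins that hold these genes, chosen by gene position alone, out of 1216 nuclear bins. Both passed the coverage filter that 1080 bins passed in both maps. TRP2 (YER090W) lies at V 337949 to 339472 on the plus strand, and all 1524 of its bases fall in the bin from 330001 to 340000. MET6 (YER091C) lies at V 339864 to 342167 on the minus strand, with 2167 bases in the bin from 340001 to 350000 and its last 137 bases in the bin of TRP2. The genes converge, with 391 bases between their ends. The gene starts in the TRP2 bin belong to AIM10, SBH1, DOT6, PTC2 and TRP2, and those in the MET6 bin include MET6, IES5, TSC11, AIM11 and PUP3. Positions are those of the R64 reference (sacCer3).

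Trp2 is a subunit of anthranilate synthase, which opens the tryptophan branch of aromatic amino acid synthesis. Met6 is the methionine synthase that does not need cobalamin, and it makes methionine from homocysteine. MET6 belongs to the genes that the activator Met4 turns on when methionine runs short. Met4 does not bind DNA well by itself and is brought to promoters by Cbf1 and by Met31 or Met32. Yeast chromosomes are tethered by their centromeres at one pole of the nucleus and by their ends at the envelope, so that loci at a like distance from their centromeres meet more often.

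The study used TRP2 and the nearby SHC1 as viewpoints of a methylation-based contact assay beside MET6, and it made Hi-C maps without methionine to look at contacts among Met4 targets. The 2 maps used here came from replicates of strain yMD291, a MATa haploid of the w303 background grown in synthetic medium without methionine. Its marker alleles are ade2-1, trp1-1, his3-11,15 and ura3-1 and a mutant allele of LEU2, and it also carries can1-100, bar1, fpr::NAT and tor1-1. REV1 promoters drive tetR-mCherry and LacI-GFP from a HIS3 construct and LacI and tetR from an ADE2 construct, and chromosome XV holds LacO at 497047 and TetO at 834487. No array lies at TRP2 or MET6 in this strain. The 4 samples that carry the methyltransferase construct (Ctrl and YBP2, -E2 and +E2) were not analysed here. No map of cells with methionine was analysed, so nothing below is an effect of methionine.

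The maps held 3751691 (replicate 1) and 3511728 (replicate 2) contacts between nuclear bins. The TRP2 bin took part in 7048 and 6882 of them and the MET6 bin in 6588 and 6147. Values are observed over expected contacts (O/E). For bins of one chromosome (cis) the expected value was the genome's mean balanced signal at that distance. For bins of different chromosomes (trans) it was the mean over pairs with matching classes of centromere distance and closeness to a chromosome end, unless stated. Means ± SD are over the 2 maps (n = 2), and 95% intervals are exact Poisson intervals on the contacts of both maps, which cover counting error only. With 1 condition there is no test between groups. For comparison, 79 other loci of 2 adjacent bins on 14 chromosomes lay within 20 kb of the same centromere distance, and ranks among them are descriptions, since neighbouring loci share bins.

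DpnII cuts at GATC, and only ends at such sites can be ligated. The last site within TRP2 and the first within MET6 by position along V are shown, with GATC in capitals, because the border between the bins falls between them. Both read on the plus strand, at V 339432 to 339471 and at V 340163 to 340202.
TRP2, last site: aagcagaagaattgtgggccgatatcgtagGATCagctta
MET6, first site: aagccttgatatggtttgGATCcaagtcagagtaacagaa
These sites lie 719 bases apart with 1 other site between them, at 339552, and the fragment of 629 bases from there to the site in MET6 crosses the bin border. The TRP2 bin holds 31 GATC sites and the MET6 bin 27, beside a median of 30 over 1079 full bins that were kept.

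The MET6 bin also holds the upstream region of MET6, shown here because it holds matches to the motifs of Cbf1 and of Met31 and Met32, the factors that bring Met4 to DNA. The window spans V 342622 to 342741 and is written in the direction of MET6, from 574 to 455 bases upstream of its start codon, with CACGTG (the Cbf1 site) and TGTGGC (the Met31 and Met32 core) in capitals on either strand.
MET6 upstream: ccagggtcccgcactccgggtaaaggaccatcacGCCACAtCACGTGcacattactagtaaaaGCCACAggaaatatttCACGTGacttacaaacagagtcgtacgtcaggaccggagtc
It was picked for its matches and holds 2 of each motif, which do not overlap. The gene on its other side, IES5 at V 342855 to 343232, lies nearer to the window than MET6 does. Of 6000 windows at the same place upstream of protein-coding genes, 1.52% held CACGTG and 4.35% held TGTGGC on either strand.

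The most marked feature of the locus was local. The border between the bins, which lies within the last bases of MET6, had one of the lowest ratios of observed to expected contacts across it among 789 measured borders. The TRP2 and MET6 bins shared 545 contacts in replicate 1 and 561 in replicate 2, an O/E of 0.599 ± 0.0248 (95% interval 0.564 to 0.635). Each had more contacts with its neighbour on the other side. The TRP2 bin shared 734 and 708 contacts with the bin from 320001, at an O/E of 1.07 ± 0.0157. The MET6 bin shared 738 and 703 with the bin from 350001, which holds SHC1, at an O/E of 1.12 ± 0.0171. At 20 kb, the MET6 bin had 124 and 119 contacts with the bin from 320001 (O/E 0.535 ± 0.0279), against 341 and 272 with the bin from 360001 (O/E 1.06 ± 0.108). The TRP2 bin had 335 and 299 contacts with the bin from 310001 (O/E 1.04 ± 0.0661) and 199 and 205 with the SHC1 bin (O/E 0.804 ± 0.0394). The lowest values were thus those of the MET6 bin with the bins on the side of TRP2. The TRP2 bin was low with the MET6 and SHC1 bins and was at an O/E of 1.01 ± 0.00379 with the bin from 360001.

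Over windows of 30 kb on each side, 2772 contacts crossed the border in both maps, with 4044 expected. The O/E was 0.677 in replicate 1 and 0.694 in replicate 2 (0.686 ± 0.0119, 95% interval 0.660 to 0.712). This was the 8th lowest of 789 borders that could be measured, so that 1.01% were as low or lower, and the lowest of 44 on chromosome V, where the next lowest, at 450000, was at 0.711. The genome's median was 1.00 and the middle 95% ran from 0.723 to 1.22. The borders 10 kb away on either side were at 0.927 ± 0.00162 (toward the centromere) and 1.01 ± 0.0107 (toward the right end), so the low value was held by a single border. It was 7th lowest of 892 borders with windows of 20 kb (0.631) and 8th of 611 with windows of 50 kb (0.713). This measure was chosen after the profile of the locus had been seen, and no test was made of it.

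**Figure D1:**
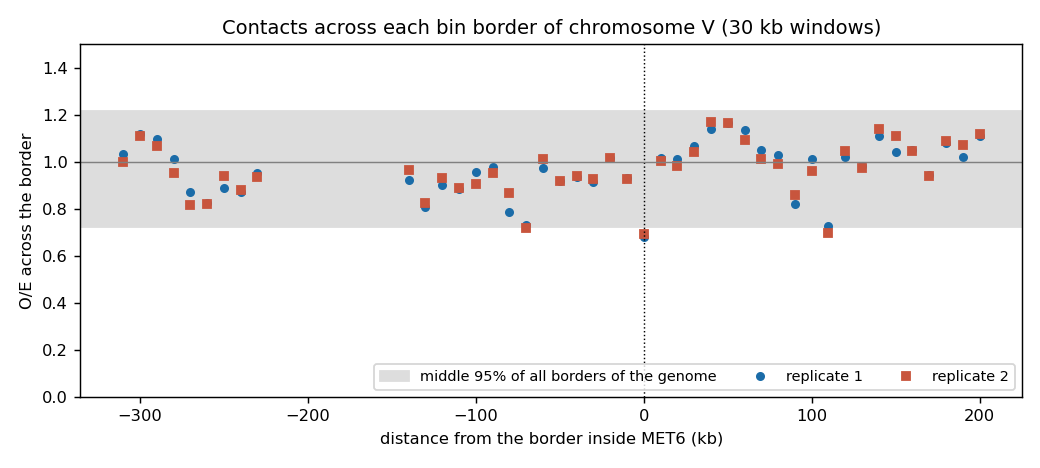
Contacts across each bin border of chromosome V. The x axis is the distance from the border inside MET6 in kb, the y axis the O/E of contacts between the 30 kb on either side, circles and squares are replicates 1 and 2, and the grey band is the middle 95% of all 789 borders; the border inside MET6, at 0.677 and 0.694, is below the band in both maps.

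The lowest border of the genome was at XV 500000 with an O/E of 0.491, next to the LacO array that the strain carries at 497047. The others lower than that of MET6 lay on chromosomes II, VII, VIII and XIV, where the strain carries no array. Whether yMD291 differs from the reference sequence near MET6 was not tested. The borders nearest to the other sulfur genes were within the genome's middle 95%. Of 42 sulfur genes, 22 had a measured border within 5 kb of their middle, each a different one. Without that of MET6, 0 of the other 21 lay outside the genome's middle 95%. Their median O/E was 0.929, against 1.00 over all borders, and both maps were below 1 at 12 of the 21 (57.1%), against 45.8% of all borders. No test was made of this. The lowest after MET6 were MET17 (O/E 0.754, the sulfhydrylase that makes homocysteine), MUP1 (0.757, the high-affinity methionine permease) and SAM2 (0.773, an S-adenosylmethionine synthetase), at places 38, 39 and 47 of 789. MET13, a methylenetetrahydrofolate reductase gene, was at 0.840. HOM6, homoserine dehydrogenase, was the highest at 1.16. The border nearest to MET30, at IX 270000, was at 0.896. The other border of its bin, at IX 260000, was the 10th lowest of all, with an O/E of 0.695.

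On either side of this border, the bins differed in the direction of their contacts. At 20 to 50 kb, the MET6 bin had an O/E of 1.06 ± 0.0888 toward the right end and of 0.647 ± 0.00641 toward the centromere, a ratio of 1.73 and 1.56 in the 2 maps. The TRP2 bin had 0.917 ± 0.0211 toward the right end and 1.04 ± 0.0244 toward the centromere, a ratio of 0.856 and 0.914. Taken as one locus they had an O/E of 0.924 ± 0.0233 at these distances, against a median of 1.02 at the compared loci, of which 69 of 79 were higher. The MET6 pairs toward the centromere and the TRP2 pairs toward the right end cross the border. Some of them are also pairs of its 30 kb windows, so these values partly restate the low value of the border. Further out toward the right end the MET6 bin stayed above 1 in both maps in each class of distance, down to 1.05 ± 0.0231 at 160 to 230 kb. With the outer 30 kb of the right arm, which is part of that class, the MET6 bin was at 0.955 ± 0.0246. At 60 to 100 kb toward the right end it had 150 and 149 contacts, an O/E of 1.25 and 1.37, against 1.17 and 1.04 for the TRP2 bin. On the centromere side at that distance the values were 0.930 ± 0.158 for MET6 and 0.938 ± 0.0563 for TRP2.

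**Figure D2:**
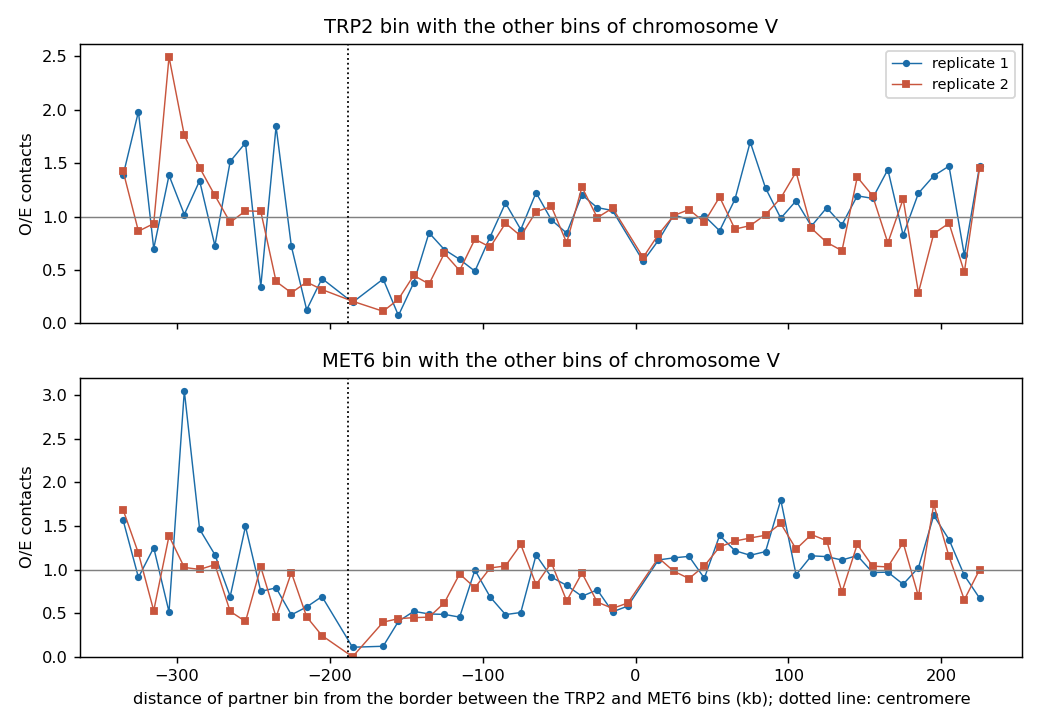
O/E contacts of the TRP2 bin (upper panel) and the MET6 bin (lower panel) with every other kept bin of chromosome V. The x axis is the distance of the partner from the border between the bins in kb. Circles and squares are replicates 1 and 2, and the dotted line is the centromere. Both rows are below 0.5 in both maps in the bin that holds the centromere, V 150001 to 160000. The MET6 row drops on the TRP2 side of the border at 0 kb.

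Every pair of kept bins on the same chromosome more than 30 kb apart was tested against its expectation with an exact one-sided Poisson test, and p-values were adjusted over all 41317 pairs by Benjamini-Hochberg. With an adjusted p below 0.05 and O/E above 1 in both maps, 2 of the locus's 96 pairs were called (2.08%), against 3.6% of all such pairs, so the locus did not stand above the background. Both calls were of the MET6 bin toward the right end. It had 81 and 68 contacts with V 390001 to 400000, the bin of TMN3, BOI2, SPR6, SLX8, RPL23B and SHO1 (O/E 1.39 and 1.26, adjusted exact Poisson p = 0.0204). It had 28 and 21 with V 430001 to 440000, where GLC7, the catalytic subunit of protein phosphatase 1, starts (O/E 1.80 and 1.53, adjusted exact Poisson p = 0.0213). Neither was called with a negative binomial test that allows for spread beyond counting, which called 0.653% of all pairs. With replicate 1 alone 1 pair was called, and with replicate 2 alone 0.

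Taking both bins together, 47 bins of chromosome V lay more than 30 kb from both, of which 17 were above 1 and 16 below 1 in both maps. The highest was V 40001 to 50000 on the left arm, with 18 and 12 contacts and an O/E of 1.96 and 1.42. It holds PRB1, the vacuolar proteinase B gene. The first bin of the chromosome followed, with 6 contacts in each map (1.47 and 1.54). Then came the bin from 530001, with BRR2, RAD24 and GRX4 (pooled 1.39), the GLC7 bin (1.41 and 1.36) and the bin from 50001, with POL5 and RPL12A (1.40 and 1.25). The other sulfur genes on the chromosome were not high. SAH1, the S-adenosylhomocysteine hydrolase gene, had 24 and 25 contacts with the locus (O/E 0.752 ± 0.0521), and HOM3, the aspartate kinase gene, 40 and 44 (0.914 ± 0.0964). LSM4, another viewpoint of the study, had 152 and 151 (0.973 ± 0.0403).

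The mirror position of the locus on the other arm does not exist. The locus lies 188 kb from the centromere on average, while the left arm is 152 kb long, so the whole left arm beyond 20 kb of the centromere was used in its place. It had 147 contacts with the locus in replicate 1 (O/E 1.08) and 118 in replicate 2 (0.910), an O/E of 0.997 ± 0.123. The outer 30 kb of the left arm had 27 and 21 contacts (1.14 ± 0.183, 95% interval 0.840 to 1.51), and the outer 30 kb of the right arm 45 and 38 (1.03 ± 0.0926). None of these differed from 1 by more than the spread of the maps. Among 19 compared loci whose opposite arm is also shorter than their centromere distance, the median O/E with that arm was 0.713 and 17 were lower than TRP2 and MET6. Among all 79 the median was 1.21 and 62 were higher. The order thus differed between these sets of loci. The 19 loci lie on 6 chromosomes, so the length of the other arm and the chromosome cannot be told apart.

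Contacts with the own centromere were rare. With the 2 kept bins within 20 kb of it, the locus had 13 and 7 contacts against 37.6 and 35.7 expected from distance alone (O/E 0.271 ± 0.106, 95% interval 0.167 to 0.421). Low values of this kind were the rule at this distance, with a median of 0.346 at 71 compared loci, of which 52 were higher and 19 lower. From 110 to 150 kb toward the centromere the O/E was 0.556 ± 0.00799, against 1.07 ± 0.0142 at the same distance toward the right end.

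The locus gave a larger part of its signal to other chromosomes than most compared loci did. In balanced signal the share between chromosomes was 33.9% and 34.1% for the TRP2 bin and 36.3% and 37.0% for the MET6 bin. The mean over both bins was 35.3%, against a median of 29.8% at the compared loci (lowest 23.1%, highest 36.0%), of which 3 of 79 were higher. The highest was the locus at XV 490001 to 510000, which holds the strain's LacO array. The trans O/E of TRP2 and MET6 over all 1025 kept partner bins was accordingly above 1, at 1.08 and 1.11 (1.09 ± 0.0179), and 5 of 79 compared loci were higher. Taken over the compared loci, the middle range used above for borders reached 35.7% for the share and 1.10 for the O/E. Both values of TRP2 and MET6 lay inside it. Any list of partners has to be read against the level of the whole row, 1.09.

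Partners were met by their own distance from the centromere. Against the mean trans signal, both bins together had an O/E of 0.397 ± 0.0413 with partners within 20 kb of a centromere and of 0.582 ± 0.0175 at 20 to 50 kb. It reached 1.37 ± 0.0632 at 150 to 200 kb and 1.39 ± 0.0263 at 200 to 250 kb, around the locus's own distance, and was 1.12 ± 0.0177 beyond 400 kb. Partners within 20 kb of the same distance had a ratio of 1.32 and 1.39 to those more than 100 kb away in distance (1.36 ± 0.0507). This was the ordinary level, with a median of 1.36 at the compared loci, of which 40 were higher and 39 lower. Against the strata, the MET6 bin was higher than the TRP2 bin over the whole trans row (1.13 ± 0.0282, against 1.05 ± 0.00952). Against the mean trans signal, the bins differed without overlap of the maps in some classes, in both directions. No test was made of these differences. Beyond 400 kb the MET6 bin was at 1.22 ± 0.0384 and the TRP2 bin at 1.02 in both maps. Close to centromeres, within 20 kb, the MET6 bin had 19 and 24 contacts (O/E 0.436 and 0.598) and the TRP2 bin 14 and 12 (0.304 and 0.271). The MET6 bin was also higher in both maps at 200 to 250 kb (1.45 ± 0.0134, against 1.34 ± 0.0615 for TRP2) and at 300 to 400 kb (1.31 ± 0.0775, against 1.15 ± 0.0965). At 50 to 100 kb the order was the other way, with the MET6 bin at 0.969 ± 0.0249 and the TRP2 bin at 1.07 ± 0.0403. At 20 to 50 kb the maps of the bins overlapped (0.561 ± 0.0571 for MET6 and 0.601 ± 0.0199 for TRP2). They also overlapped at 100 to 150, 150 to 200 and 250 to 300 kb.

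By chromosome, and after the strata were taken into account, 3 short chromosomes were low. The O/E was 0.643 ± 0.102 with chromosome I, 0.706 ± 0.0308 with VI and 0.653 ± 0.265 with III, while all others had means between 0.982 and 1.21. The highest were VII (1.14 and 1.28) and XVI (1.08 and 1.32). Chromosome III differed between the maps, with 98 contacts in replicate 1 (O/E 0.840) and 52 in replicate 2 (0.465), although all kept bins of chromosome V together were at 0.981 and 0.998 with it. The low level with short chromosomes was shared by the compared loci, with a median of 0.719 over I, III and VI against 0.669 for TRP2 and MET6.

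**Figure D3:**
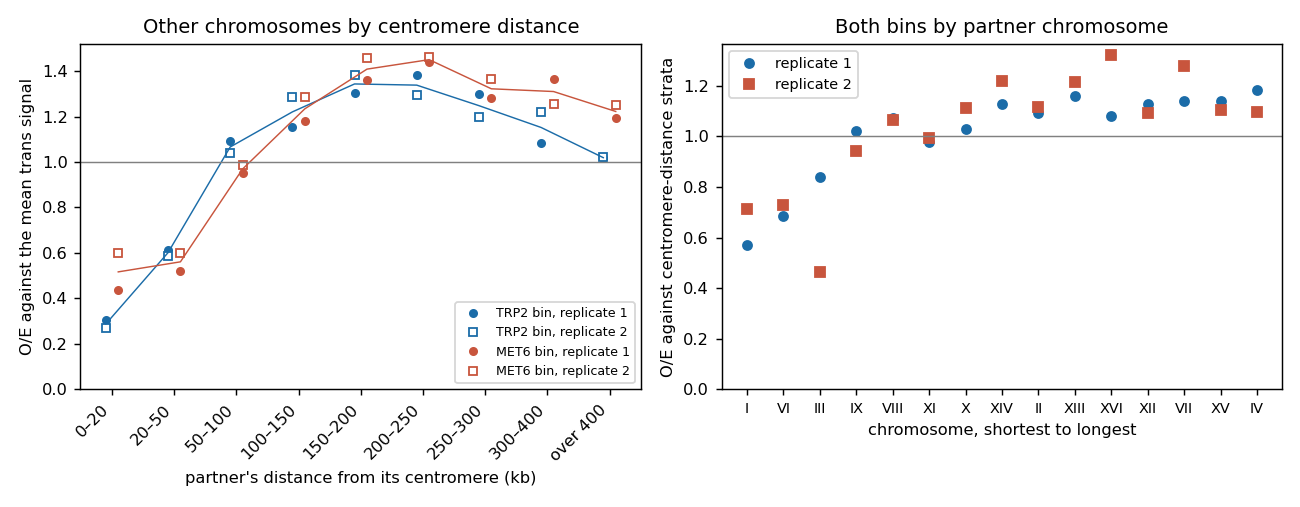
Contacts of the locus with other chromosomes. Left, O/E against the mean trans signal (y axis) by the partner's centromere distance in kb (x axis) for the TRP2 and MET6 bins, with lines through the means; right, O/E against the centromere-distance strata for both bins together by partner chromosome, shortest to longest. Filled and open markers (left) or circles and squares (right) are replicates 1 and 2; the values peak at 150 to 250 kb, and chromosomes I, VI and III are lowest.

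No single partner on another chromosome was called. Of 2050 pairs of the locus, 0 passed the same Poisson test adjusted over all 538386 trans pairs, against 0.0412% of them (222 pairs), and 0 passed with the negative binomial test. At an unadjusted p below 0.05, 158 of the 2050 pairs (7.71%) were above expectation in both maps, against 3.88% of all trans pairs, in a row whose O/E as a whole was 1.09. The expected number of contacts averaged 4.01 per pair in both maps together, so only large excesses could be seen. The lowest adjusted p was 0.110, for the MET6 bin with XIII 740001 to 750000, where RNH1, RNA1 and RNT1 start (9 and 5 contacts). For both bins together, the highest partners that were above 1 in both maps were IV 1150001 to 1160000, with HXT7 (7 and 5 contacts, O/E 3.59 and 2.82), and the SAM2 bin on IV (7 and 5, O/E 3.27 and 2.61). Then came XVI 810001 to 820000 with MEP3 and KAR3 (11 and 7, O/E 3.27 and 2.31), XIII 870001 to 880000 with ADH2 (9 and 6, O/E 3.28 and 2.32) and XVI 790001 to 800000 with SPN1 and CTF4 (10 and 7, pooled O/E 2.75). Across the 1025 partner bins the O/E of the maps correlated weakly (Pearson's r = 0.266, Spearman's rho = 0.253), bins being no replicates. No other bin shared a word of 50 bases with either member bin.

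The sulfur genes as a group were contacted slightly more than expected, and by about as much as the whole trans row. The list has 42 genes including MET6, and 34 kept bins on other chromosomes hold its members. The locus had 150 and 149 contacts with them against 132.9 and 126.8 expected, an O/E of 1.13 and 1.18 (1.15 ± 0.0328, 95% interval 1.02 to 1.29). Divided by the O/E of the whole row this was 1.04 and 1.06 (1.05 ± 0.0128). In both maps 10 of the 34 bins (29.4%) were above 1, against 32.2% of all trans bins of the row, and 8 were below 1. The list's share was thus near the background. The median over its bins was 1.11, against 1.06 over all trans bins. Among the compared loci the median of the same ratio to the row was 1.02, with 22 of 79 higher. With factors fitted to trans contacts only, the list's O/E was 0.983. Such factors give every kept bin the same trans total, and so take away the excess of the whole row. The list's ratio to the row was not computed under that setting.

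Both bins had this level. The TRP2 bin had an O/E of 1.15 ± 0.0104 with the list and the MET6 bin 1.15 ± 0.0571, and the SHC1 bin next to them 1.14 ± 0.00447. Other bins within 85 kb on chromosome V ran from 0.863 to 1.41, a range that holds the locus. When the list's bins were moved by 10 kb along their chromosomes, it was 1.09 ± 0.0141 on one side and 1.09 ± 0.0924 on the other.

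By role, the 7 kept bins of methionine and S-adenosylmethionine genes had 40 and 32 contacts (O/E 1.55 and 1.28, 95% interval of both 1.11 to 1.78). The SAM2 bin alone gave 7 and 5 of these. In both maps 3 of the 7 bins (42.9%) were above 1, against 32.2% of all trans bins of the row. The 7 bins of transporters and salvage genes had 33 and 32 (1.27 and 1.29). The 9 bins of sulfate assimilation had 38 and 54, with O/E on both sides of 1 (1.21 ± 0.342). The 8 bins of homocysteine and cysteine synthesis had 34 and 29 (1.23 and 1.10). The 6 bins of the regulators had 20 and 21 (0.817 and 0.903). The bin of MET5 and HOM6 counts in both of the groups for sulfate and for homocysteine and cysteine. The bins of MHT1 and MMP1 and of SAM4 and SAM3 count in both of the first groups named, so that these share 2 of their 7 bins. Divided by the O/E of the whole row, the methionine and S-adenosylmethionine bins were at 1.43 and 1.16 and the transporters and salvage genes at 1.17 in both maps. The sulfate bins were at 0.896 and 1.31 and those of homocysteine and cysteine at 1.13 and 0.991. The regulators were at 0.756 and 0.817. No test compares the groups.

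The highest list bin was that of SAM2, described above, with a pooled O/E of 2.96 (95% interval 1.53 to 5.17). MUP1 had 6 and 11 contacts (O/E 1.43 and 2.82), and MET4, the activator itself, 7 and 10 (1.66 and 2.53). The bin of SAM4 and SAM3, a homocysteine methyltransferase and the S-adenosylmethionine permease, had 5 and 3 (pooled 1.85). The bin of MET5 and HOM6, which include the sulfite reductase beta subunit, had 7 and 10 (1.37 and 2.11). The intervals of SAM2, MUP1, MET4 and the MET5 bin lay above 1, without adjustment for the 34 bins. That of the MET5 bin, 1.01 to 2.76, held the level of the whole row, 1.09. How many of all trans bins of the row had an interval above 1 was not counted, so these bins have no background beside them. MET13 had 7 and 8 contacts with 5.01 and 4.85 expected (O/E 1.40 and 1.65), and its interval of 0.852 to 2.51 held 1. The TRP2 bin supplied most of these, with 6 in each map (O/E 2.35 ± 0.0163, 95% interval 1.21 to 4.10). The MET6 bin had 1 and 2 (0.639 ± 0.323, 95% interval 0.130 to 1.85). The small SD for the TRP2 bin follows from equal counts in the maps, and neither pair was called.

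The lowest list bins were MET30, the F-box gene that restrains Met4, with 1 and 3 contacts (O/E 0.179 and 0.554), CYS3, cystathionine gamma-lyase, with 1 in each map (0.364 and 0.377), and MET3, ATP sulfurylase, with 1 in each map (0.375 and 0.395). CYS3 and MET3 lie 16.5 and 18.6 kb from their centromeres. MET2 had 2 contacts in replicate 1 and 0 in replicate 2, so a single bin can change sides by a contact or 2.

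**Figure D4:**
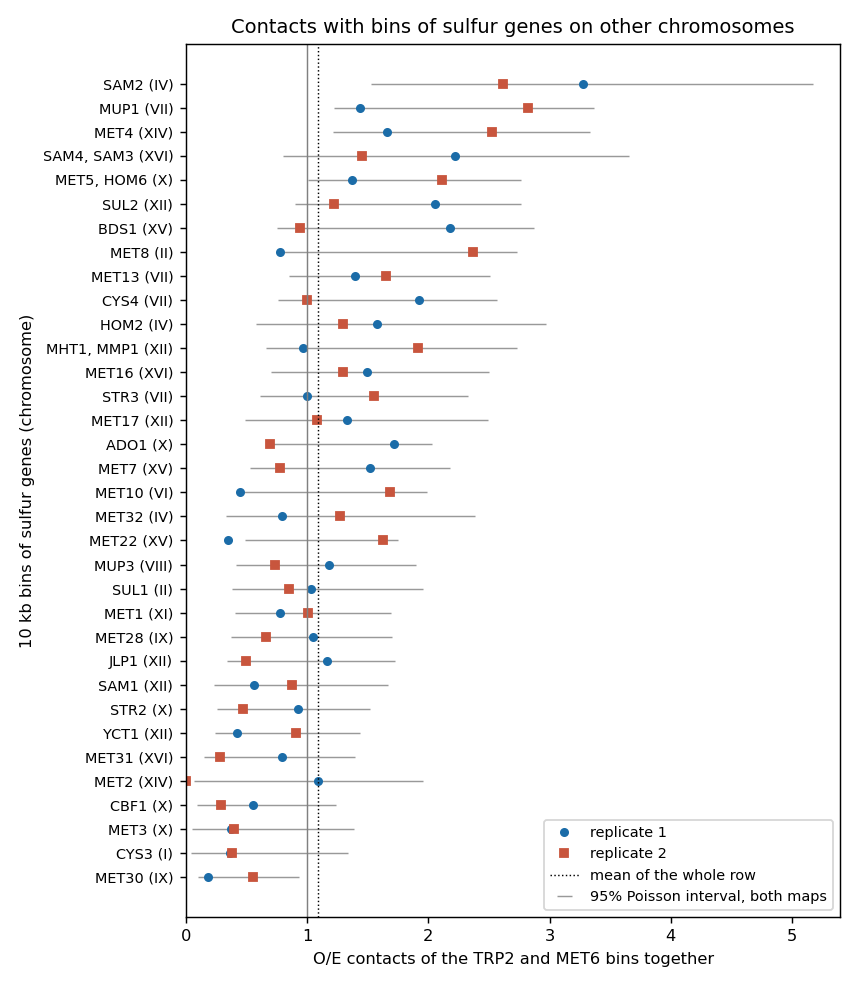
O/E contacts of the TRP2 and MET6 bins together (x axis) with the 34 kept bins of sulfur genes on other chromosomes (y axis, highest at the top). Circles and squares are replicates 1 and 2, grey lines are 95% Poisson intervals of both maps, and the dotted line is the whole trans row at 1.09; most intervals cross 1, with SAM2 highest and MET30 lowest.

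Genes of the pathway of TRP2 gave no common direction. The 8 bins of TRP1, TRP3, TRP4, TRP5 and ARO1 to ARO4 had 42 contacts in replicate 1 (O/E 1.32) and 21 in replicate 2 (0.695). In both maps 2 of the 8 (25%) were above 1, against 32.2% of all trans bins of the row. Those were TRP3, the partner subunit of Trp2, with 5 and 4 contacts (1.36 and 1.16), and TRP4, the phosphoribosyltransferase of the next step, with 5 and 3 (2.13 and 1.33). ARO1 was below 1 in both maps, with 3 and 2 contacts (0.695 and 0.496), and the other 5 were on different sides of 1. The 10 trans bins that hold other viewpoints of the study also split, with an O/E of 1.31 and 0.925.

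**Figure D5:**
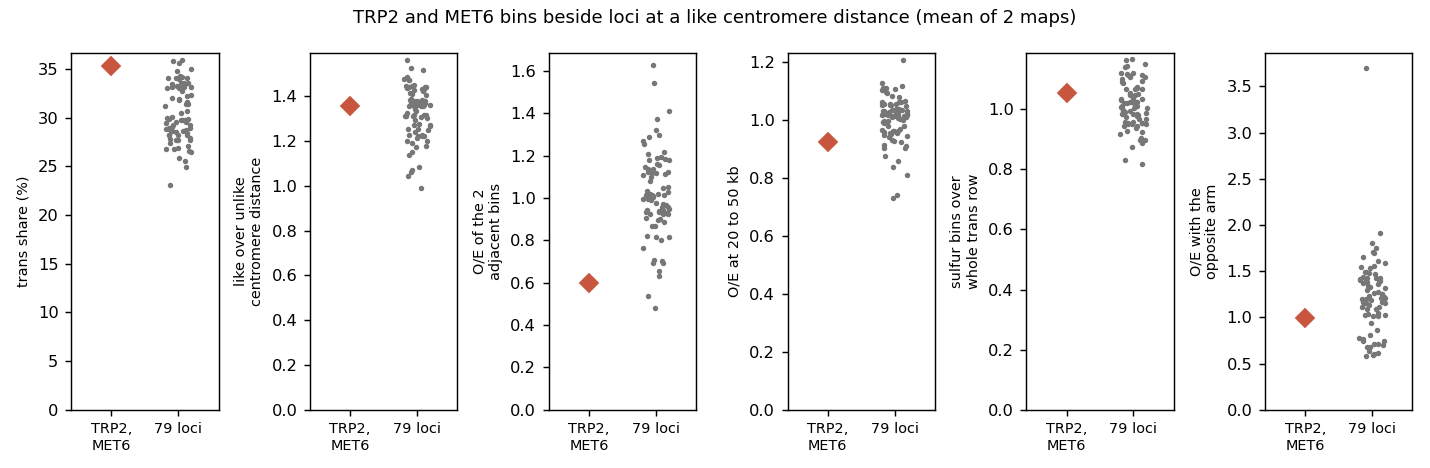
Means of 2 maps for the TRP2 and MET6 bins (diamond) beside 79 loci of 2 adjacent bins at a like centromere distance (dots). The panels give the trans share in percent and 5 ratios of contacts; the locus lies near the top in trans share (35.3%), near the bottom in contacts between its adjacent bins (0.599, with 2 loci lower) and inside the range elsewhere.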

How the data were processed

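Per the labels, the authors used HiC-Pro and sacCer3. The deposited signal values are contact frequencies for pairs of 10 kb bins after ICE balancing, which gives every bin of a map the same total and so hides differences in coverage between bins. How reads were filtered is not given in the sources used here, and the maps were not scaled to each other. Bin numbers of the deposited files were used as given, and chromosome lengths equal R64. Factors recovered from trans values turned each value into whole contacts to within 0.01. Expectations were means of balanced signal, turned back into contacts. Bins were kept where a share of 0.5 of trans partners had a value in both maps. Trans strata had edges at 0, 20, 50, 100, 200, 300 and 500 kb, and chromosome ends were 30 kb. Poisson tests covered all kept pairs (numpy 2.4.6, scipy 1.17.1), and scripts were tested on simulated data. The named genes were TRP2, MET6, SHC1, genes of called bins, the 5 highest far-cis and trans bins, sulfur genes of V, the 5 highest and 3 lowest sulfur bins with both maps on 1 side of 1, and MET13. The others (border genes, MET2, LSM4, TRP3, TRP4 and ARO1) were named after their values were seen. The members and lists were chosen with earlier results of these data known. Replicates are biological per the study's methods, but no test compares cultures. Alternatives were single maps, no filter, trans-only balancing, other expectations, windows and tests, and each bin alone.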

Additional observations from a re-analysis of the deposited data

How the results depend on the processing

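No paired analysis was possible because the maps analysed here are of 1 group. Of 53 alternatives other than single maps, 37 left the value within the spread of the maps (or the count within 1.5 times) and 16 moved it, and of 41 that give ratios 35 stayed on the same side of 1. Balancing on trans contacts only lowered values within the chromosome, to 0.707 for the left arm, 0.764 for the left end, 0.749 for the right end, 0.694 for local contacts at 20 to 50 kb and 0.4998 across the border inside MET6, and it gave 0.983 for the sulfur bins and 0 far-cis calls. That setting moved the median of all borders to 0.930, and the border inside MET6 was still 8th lowest of 789. Without the filter on bins the ratio at like centromere distance was 1.42. With windows of 30 kb around each sulfur gene the O/E was 1.12. Local contacts at 20 to 50 kb were 0.978 for the TRP2 bin alone and 0.864 for the MET6 bin alone, and the far-cis calls were 0 for the TRP2 bin alone. With the mean trans signal as the only expectation, which takes no account of centromere distance, 6 of the locus's 2050 trans pairs were called. How many of all trans pairs were called under that setting was not counted, so the 6 have no background beside them. The negative binomial test gave 0 far-cis calls. Contacts across the border, added after the data were seen, were 0.631 with windows of 20 kb and 0.713 with 50 kb. With either map alone, the ranges were 0.910 to 1.08 for the left arm, 1.01 to 1.27 for the left end, 0.964 to 1.10 for the right end, 0.196 to 0.345 for the centromere region, 0.907 to 0.940 for local contacts, 1.32 to 1.39 at like centromere distance, 1.13 to 1.18 for the sulfur bins and 0.677 to 0.694 across the border. Far-cis calls ranged between 0 and 1, being 1 without replicate 2 and 0 without replicate 1, and trans calls were 0 both times. The causes of these shifts were not tested. A trans pair holds about 4.01 expected contacts in both maps, which limits what single pairs can show.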
